A study of Danio rerio with 12 samples.

Results

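The genes described here are 3 ligand genes of the fibroblast growth factor (FGF) pathway and 7 genes that FGF signalling is known to switch on, measured in whole zebrafish embryos at 4.5 hours postfertilization (hpf). Members were all probe sets whose gene symbol in the array annotation is *fgf3*, *fgf8a*, *fgf24*, *spry2*, *spry4*, *dusp6*, *il17rd*, *etv4*, *etv5a* or *etv5b*. This gave 14 of the 15617 probe sets of the Affymetrix Zebrafish Genome Array, for 10 genes. Of these genes 7 have 1 probe set, *dusp6* and *etv5a* have 2 each and *spry2* has 3. The study compared control embryos of the ABTL strain, kept in embryo medium, with embryos of the same strain kept in medium with 100 mM ethanol from 2 hpf on, and the labels name no mutant or transgene. RNA was taken at 4.5 hpf from pools of 20 embryos, and each of 6 independent experiments gave 1 control and 1 ethanol pool, which makes 12 arrays. Since the pools hold whole embryos, fewer cells expressing a gene and less RNA per cell cannot be told apart.

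FGF ligands are secreted proteins that bind receptor tyrosine kinases together with heparan sulfate and pass the signal through RAS and the MAP kinase ERK. ERK activity switches on transcription of the ETS factor genes *etv4*, *etv5a* and *etv5b* and of inhibitors that act back on the pathway, namely the Sprouty genes, *dusp6* and *il17rd*, so that these transcripts are commonly read as a sign of FGF activity. In the zebrafish blastula, FGF ligands are expressed at the embryo margin and act in the formation of mesoderm and in dorsoventral patterning.

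With ethanol, *etv5a* was the only one of these genes with a probe set called as changed, and it was higher. That is 1 of the 13 member probe sets tested, against 5.4% of all probe sets tested on the array. The *etv5a* signal rose from 260.5 ± 39.7 to 394 ± 110 (SD, n = 6) on 1 probe set. On its other, brighter probe set it was higher in 6 of 6 experiments, as for 8.14% of all tested, without passing the test. The 3 ligand genes, the 4 inhibitor genes, *etv4* and *etv5b* had no called probe set. Among them *etv4* was lower in 6 of 6 experiments by a small amount, as for 3.84% of all tested. The other genes were higher in some experiments and lower in others.

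**Figure D1:**
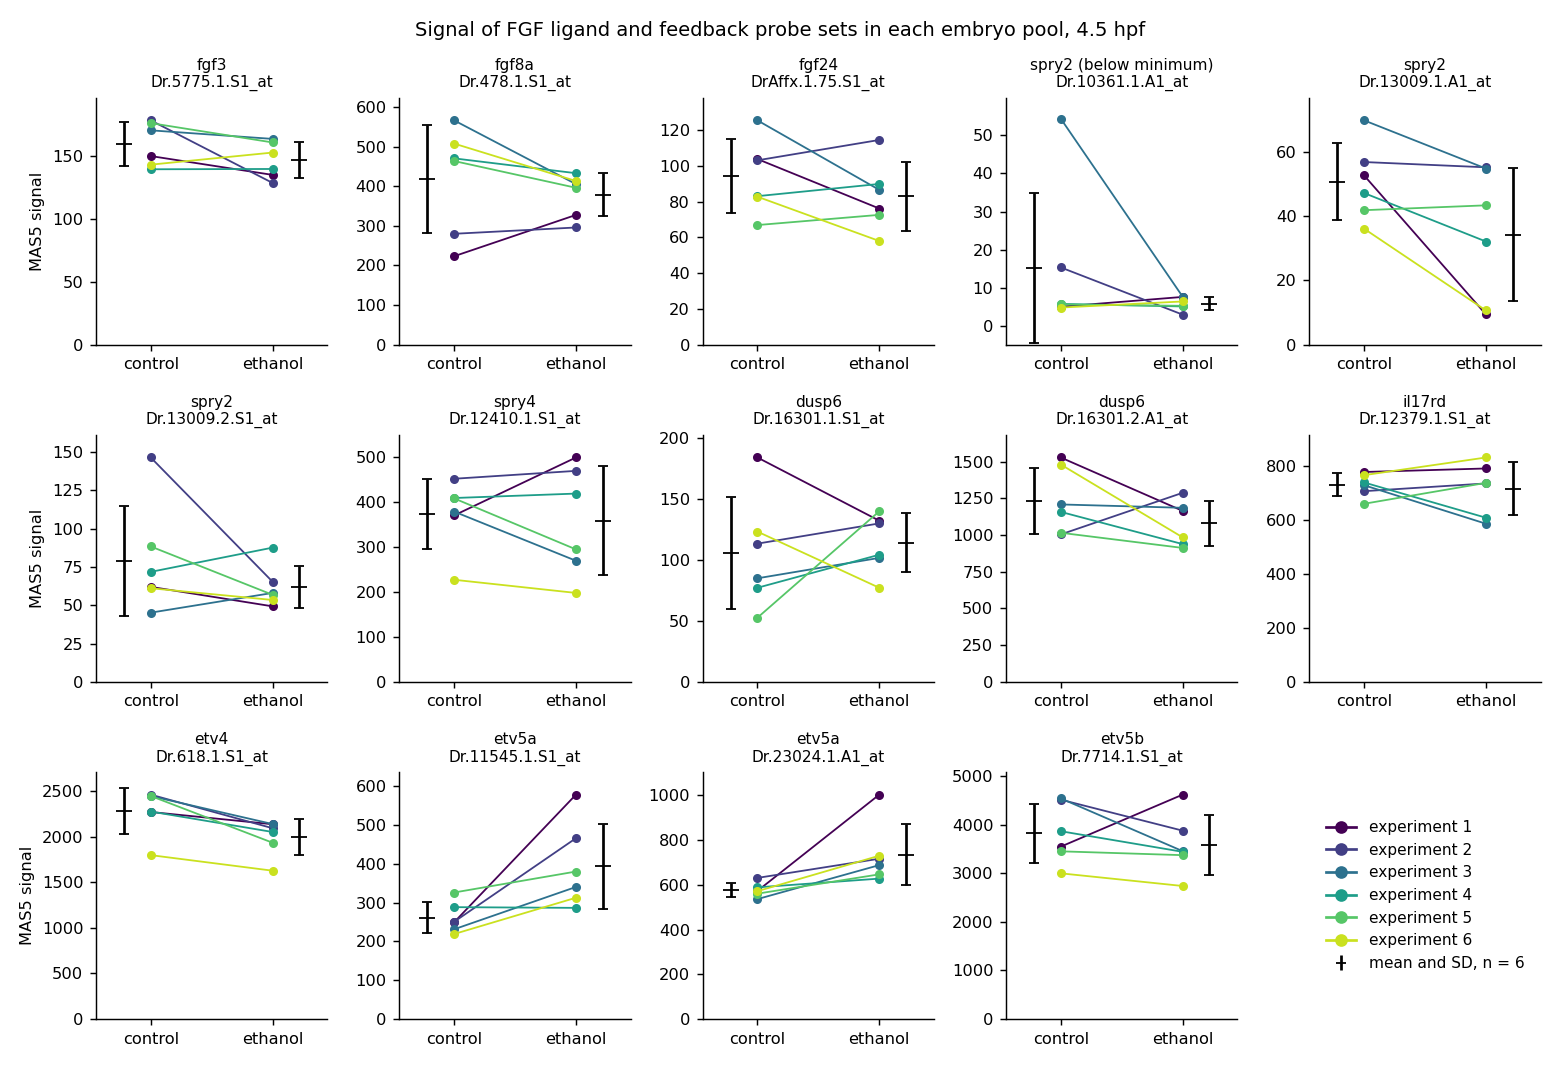
MAS5 signal (vertical axis, linear, arbitrary units) of each of the 14 probe sets in the control and ethanol pool of each experiment, joined by a line and coloured by experiment, with the mean and SD (n = 6) beside each group. The lines of the brighter *etv5a* probe set all point up and those of *etv4* all point down, while those of the other probe sets go both ways, and 1 *spry2* probe set lies below the signal minimum.

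The values are MAS5 signals, which are background-corrected intensities per probe set on a linear scale. Since probe sets differ in how well they hybridize, levels were not compared between genes. A probe set was tested where its mean signal was at least 50 in either treatment, which held for 9767 probe sets of the array and for 13 of the 14 members. Log2 signals went into a limma model with 1 factor for treatment and 1 for experiment. Called were probe sets with an adjusted p (Benjamini-Hochberg, over all 9767) under 0.15, an unadjusted p under 0.03 and a rise of at least 25% or a fall of at least 20%, which are the study's limits. Over the whole array 3.78% of the tested probe sets were called higher and 1.62% lower. Of the 13 member probe sets tested, 1 was called higher and 0 lower in limma. At an unadjusted p under 0.05 there were 4, namely both of *etv5a*, 1 of *spry2* and that of *etv4*, against 18.2% of all probe sets tested. The *spry2* one passed the signal minimum through its control pools only, where it is high, so that its place in this count carries no weight. A model without moderation of the variance and with Storey q, run on the probe sets kept here, called 0 members, with q just past the limit for *etv5a* (0.160 and 0.156). The median log2 fold change of the 13 was -0.11, against 0.053 over all probe sets tested, and 10 of the 13 were below 0, against 40.3% of all. The *spry2* probe set that passed through its control pools only is among those below 0. On the brightest tested probe set of each of the 10 genes, which leaves it out, 9 were below 0 (median -0.11). Median centring of the arrays moves the median of all probe sets by 0.105, to -0.053, and quantile normalization moves it to 0.014. The share of 40.3% below 0, here and further on, thus holds for the deposited scaling only. No member changed sign with median centring or quantile normalization. Member estimates after median centring are lower by 0.105, which is more than the size of the uncentred estimate for *fgf8a*, *il17rd* and *etv5b*.

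The arrays carried the transcripts of a blastula. The genes *pou5f3*, *nanog* and *sox19b*, which encode factors of genome activation, each had a probe set above the signal minimum. So did the margin and organizer genes *tbxta*, *chrd*, *gsc* and *noto*, 5 enveloping layer, 3 yolk syncytial layer and 3 maternal oocyte markers. Of 5 markers of later differentiated cells with a named probe set, only *elavl3* passed, and *myod1* had a control mean of 6.39. It was through its ethanol pools only that *elavl3* passed, with means of 70.6 in ethanol and 44.4 in control pools on its brightest probe set. In limma 0 of the 19 marker genes tested were called with ethanol, against 5.4% of all probe sets tested. At an unadjusted p under 0.05 there were 7 of the 19, against 18.2% of all, so that the markers cannot be taken as unmoved. The unmoderated model also called 0. The 4 margin and organizer markers mark the region where FGF ligands are made. Their summed signal ranged from 7164 to 8851 in control and from 6607 to 7957 in ethanol pools. Of these 4, 3 were below 0, against 40.3% of all probe sets tested. Their median log2 fold change was -0.17, against 0.053 over all. A median below 0 was not particular to the margin. Above 0 were 1 of the 5 enveloping layer markers (median -0.062) and 1 of the 3 yolk syncytial layer markers (median -0.18). So were 2 of the 3 genome activation genes (median 0.21) and 3 of the 3 maternal oocyte markers (median 0.023). The part of the margin and organizer markers in the values below was not tested.

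**Figure D2:**
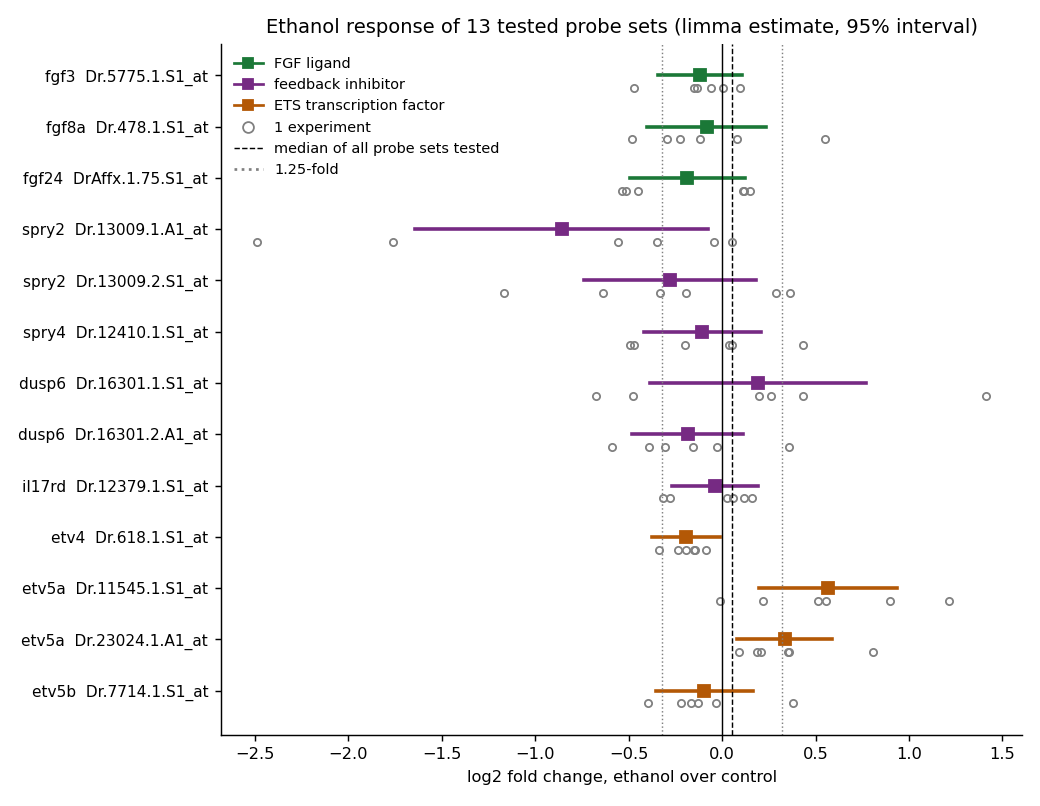
Log2 fold change of ethanol over control (horizontal axis) of the 13 tested probe sets, with squares for the limma estimate, lines for its 95% interval, coloured by role, and open circles for the single experiments. Both *etv5a* intervals lie above 0, those of *etv4* and of 1 *spry2* probe set lie below 0, and the 9 others include 0. That *spry2* probe set passed the signal minimum through its control pools only.

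Among the ligand genes, *fgf8a*, which encodes a ligand of the margin needed for posterior mesoderm, varied more between experiments than between treatments. In experiments 1 to 6 its signal was 223, 280.1, 567, 471, 464 and 508 in the control pools and 328, 296, 406, 433, 396 and 413 in the ethanol pools. The pools of experiments 1 and 2 were the lowest in both treatments, and the ethanol values lay wholly within the range of the control values. Among the 13 members, *fgf8a* alone had the pools of experiments 1 and 2 below all others in both treatments, which was so for 10.2% of all probe sets tested. The log2 ratio of ethanol to control for *fgf8a* was 0.55 and 0.080 in experiments 1 and 2, and -0.48, -0.12, -0.23 and -0.30 in experiments 3 to 6. It was thus above 0 where the control signal was low and below 0 in the 4 others. The control signal is the denominator of this ratio, so that a low control value raises the ratio by itself. A difference in response between experiments was not tested. Over all experiments the estimate was -0.082 on the log2 scale (95% interval -0.40 to 0.24, SE 0.14, limma adjusted p = 0.782). The *fgf8a* estimate was -0.21 without experiment 1, -0.0022 without experiment 3 and -0.19 after median centring.

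For *fgf3*, a ligand gene known for its joint action with *fgf8a* in the early brain, the signal was 150.3, 179, 171, 139.8, 177 and 144 in the control pools and 135, 129, 164, 140.0, 161 and 153 in the ethanol pools. The groups overlapped, with 2 ethanol pools below the lowest control pool and a lower signal in 4 of 6 experiments. The log2 estimate was -0.12 (95% interval -0.34 to 0.10, SE 0.097, limma adjusted p = 0.535). For *fgf24*, which acts with *fgf8a* in posterior mesoderm, the signal was 104, 103, 126, 83.1, 66.9 and 82.8 in the control pools and 76.2, 115, 86.6, 90.0, 72.6 and 58.0 in the ethanol pools. It lay not far above the signal minimum, was lower with ethanol in experiments 1, 3 and 6 and higher in 2, 4 and 5. Here the log2 estimate was -0.19 (95% interval -0.49 to 0.12, SE 0.13, limma adjusted p = 0.483). The upper ends of the 3 ligand intervals do not reach a rise of 25%, whereas the lower ends of all 3 go past a fall of 20%.

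Of the inhibitors, *dusp6* encodes a phosphatase that dephosphorylates ERK. On its brighter probe set the signal was 1529, 1004, 1209, 1158, 1016 and 1481 in the control pools and 1165, 1288, 1186, 939, 912 and 985 in the ethanol pools. The ethanol pool was lower in 5 of 6 experiments and 3 ethanol pools lay below every control pool, but experiment 2 went the other way. On the log2 scale the estimate was -0.18 (95% interval -0.48 to 0.11, SE 0.13, limma adjusted p = 0.470). The dimmer probe set of *dusp6* ranged from 52.6 to 184 in control and from 77.3 to 140.1 in ethanol pools and was higher with ethanol in 4 of 6 experiments. Its estimate of 0.19 (95% interval -0.38 to 0.77, SE 0.25, limma adjusted p = 0.716) had the opposite sign, and turned to -0.052 without experiment 5, in which the log2 ratio was 1.41. These 2 probe sets moved the same way in 3 of 6 experiments, and their log2 ratios differed by -0.38 ± 0.67 (brighter minus dimmer, SD, n = 6). The *dusp6* probe sets thus disagreed in the sign of their estimates, and whether their responses differ was not tested.

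The Sprouty gene *spry4* encodes an inhibitor of receptor tyrosine kinase signalling. Its signal in experiments 1 to 6 was 371, 452, 379, 409.6, 409 and 227 in the control pools and 499.9, 470.1, 269.7, 419, 295 and 198 in the ethanol pools. It was higher with ethanol in experiments 1, 2 and 4 and lower in 3, 5 and 6, with log2 ratios from -0.49 to 0.43. The log2 estimate was -0.11 (95% interval -0.42 to 0.21, SE 0.14, limma adjusted p = 0.708).

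Signals of *spry2*, the other Sprouty gene, were low on every probe set. On the brightest they were 62.0, 147, 45.2, 71.8, 88.4 and 61.1 in the control pools and 49.3, 65.3, 58.0, 87.7, 56.8 and 53.4 in the ethanol pools, which overlap. The log2 estimate there was -0.28 (95% interval -0.74 to 0.18, SE 0.20, limma adjusted p = 0.478). On the second probe set of *spry2* the signals were 52.6, 56.8, 69.8, 47.2, 41.8 and 36.1 in the control pools and 9.38, 55.2, 54.8, 32.1, 43.3 and 10.6 in the ethanol pools. Its estimate of -0.86 (95% interval -1.64 to -0.074, SE 0.34, limma adjusted p = 0.245) came with log2 ratios of -2.49 and -1.76 in experiments 1 and 6, whose ethanol signals lie far under the signal minimum. Between both tested *spry2* probe sets the ratio had the same sign in 3 of 6 experiments. On the dimmest probe set the mean was 15.1 in control and 5.81 in ethanol pools, with 1 control pool at 54.4, and it was not tested. The size of any *spry2* change is therefore uncertain on this array.

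The membrane inhibitor gene *il17rd*, whose product Sef acts on FGF receptor signalling, had an even signal in control embryos. It was 779, 708, 729.8, 740.1, 661 and 767 in the control pools and 792, 736, 587, 609, 739 and 833 in the ethanol pools. The control pools of *il17rd* had an SD of 0.086 on the log2 scale, and only 1.0% of all tested probe sets had a smaller one. Its ethanol pools spread wider on either side, with 2 above and 2 below every control pool. At -0.039 (95% interval -0.27 to 0.19, SE 0.0996, limma adjusted p = 0.866) the log2 estimate was close to 0, with an interval that excludes a rise of 25% and a fall of 20%. After median centring the *il17rd* estimate was -0.14 (95% interval -0.37 to 0.085), which no longer excludes a fall of that size. Its sign turned without experiment 3 (0.016) or 4 (0.0091).

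The ETS factor gene *etv5a* was higher with ethanol on both of its probe sets. On the dimmer one the signal was 249, 250.3, 231, 288, 326 and 219 in the control pools and 578, 466, 340.1, 286, 379.9 and 312 in the ethanol pools. Of these, 4 ethanol pools lay above every control pool. The log2 ratio was 1.21 in experiment 1, 0.90 in 2, 0.56 in 3, -0.0092 in 4, 0.22 in 5 and 0.51 in 6. The limma estimate was 0.57 on the log2 scale (95% interval 0.20 to 0.94, SE 0.16, adjusted p = 0.148), that is 1.48-fold, and it was called. On the brighter *etv5a* probe set the signal was 573, 631, 536, 589, 561 and 572 in the control pools and 1004, 717, 688, 628, 647 and 730.5 in the ethanol pools. Here 5 ethanol pools lay above every control pool, and the pool of experiment 4 lay just under the highest control. The log2 estimate was 0.33 (95% interval 0.080 to 0.59, SE 0.11, limma adjusted p = 0.187). The ethanol pool was the higher one in 6 of 6 experiments, as for 8.14% of all probe sets tested.

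Both *etv5a* probe sets had the same sign in 5 of 6 experiments, with the highest ratio in experiment 1 and the lowest in experiment 4. The log2 ratio on the brighter one differed from the dimmer one by -0.23 ± 0.29 (SD, n = 6). The control pools of the brighter probe set lay close together, with an SD of 0.078 on the log2 scale that only 0.635% of tested probe sets undercut. The *etv5a* call was close to the threshold and was lost without any 1 of the 6 experiments, with log2 estimates of 0.44 to 0.68, without the experiment term (limma adjusted p = 0.456) and after median centring or quantile normalization (0.46 each). On the brighter probe set the interval after median centring reached 0 (0.23, 95% interval -0.012 to 0.47). With a signal minimum of 100 both *etv5a* probe sets were called (limma adjusted p = 0.118 for the brighter one).

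No such rise was called for the related genes *etv5b* and *etv4*. The signal of *etv5b* was 3549, 4517, 4543, 3867, 3453 and 2999 in the control pools and 4620.5, 3878, 3456, 3442, 3373 and 2738 in the ethanol pools, lower in 5 of 6 experiments and higher in experiment 1. The log2 estimate was -0.094 (95% interval -0.35 to 0.16, SE 0.11, limma adjusted p = 0.686). For *etv4* the signal was 2269, 2459.6, 2444, 2274, 2445 and 1796 in the control pools and 2135, 2091, 2137, 2049.8, 1932 and 1625 in the ethanol pools. Each *etv4* ethanol pool was below its own control pool, as for 3.84% of all tested probe sets, although the ranges of the groups overlapped.

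The *etv4* log2 ratios, from -0.34 to -0.088, were close to one another, with an SD of 0.088 that only 1.20% of tested probe sets undercut. The limma estimate was -0.19 (95% interval -0.37 to -0.0085, SE 0.079, adjusted p = 0.259), that is 0.876-fold, and *etv4* was not called. Without moderation its SE was 0.036 and the Storey q was 0.108, but the change was smaller than a fall of 20% in either model. After median centring the *etv4* estimate was -0.30 (SE 0.080, 95% interval -0.48 to -0.11, limma adjusted p = 0.148), that is 0.814-fold, which passed the limit on the adjusted p but not that on the size of the fall.

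**Figure D3:**
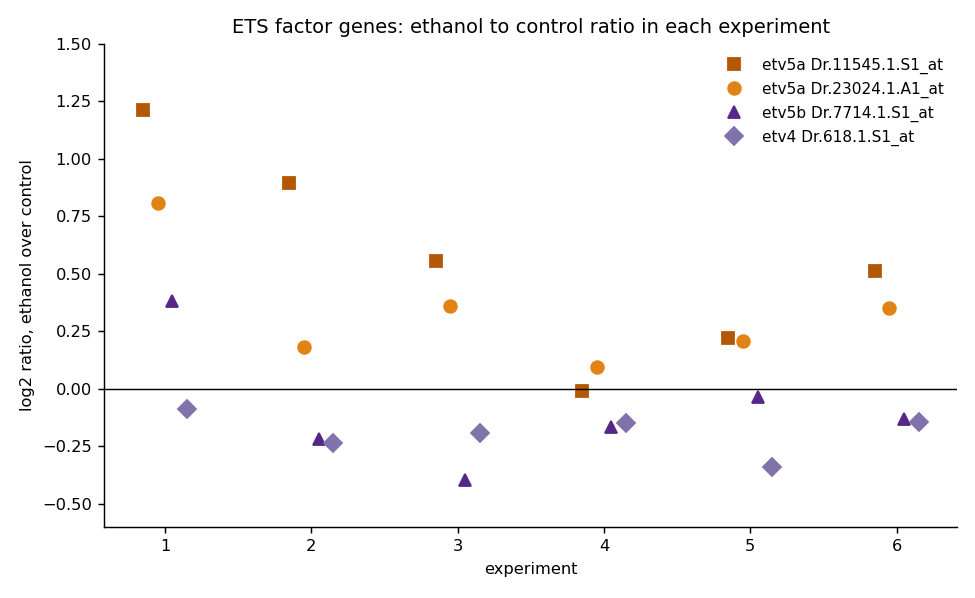
Log2 ratio of ethanol to control (vertical axis) in each of the 6 experiments (horizontal axis) for both *etv5a* probe sets, *etv5b* and *etv4*. Each *etv5a* point lies above the *etv5b* point of the same experiment, by 0.24 to 0.75 on the brighter *etv5a* probe set.

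To ask whether the paralogs *etv5a* and *etv5b* differed in response, their log2 ratios were subtracted within each experiment, on the brightest probe set of each gene. The ratio of *etv5a* was the higher one by 0.43, 0.40, 0.75, 0.26, 0.24 and 0.48 in experiments 1 to 6. The mean difference was 0.43 ± 0.19 (SD, n = 6), and the exact sign-flip test, two-sided, gave p = 0.03125, the smallest that 6 experiments allow (adjusted p = 0.0625 over 2 comparisons). On the dimmer *etv5a* probe set the difference from *etv5b* ranged from 0.16 to 1.12 and was again above 0 in 6 of 6 experiments. For *spry2* against *spry4* the differences ranged from -1.22 to 0.85, with a mean of -0.17 ± 0.74 (SD, n = 6). In that comparison 40 of the 64 sign assignments of the exact test gave a difference at least as large, and the mean turned to 0.037 without experiment 2. The adjusted p of the *etv5a* comparison misses 0.05. With 6 experiments and 2 comparisons it could pass only if the *spry2* comparison also reached the smallest p, so that the miss decides nothing. The genes were paired with earlier results of these data known.

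Experiments differed from one another in a way that several members shared. In experiment 6 the signals of *spry4*, *etv4* and *etv5b* were the lowest of their group in the control and in the ethanol pool alike, which holds for 3 of the 13 member probe sets and for 7.66% of all tested. The *etv4* control pool of experiment 6, at 1796, lay apart from the 5 others at 2269 to 2459.6, and the *spry4* control pool, at 227, from 371 to 452. The control value of *etv5b* in experiment 6 was 2999, against 3453 to 4543 in the others. The ligand gene *fgf8a* had no such low value in experiment 6, where its control signal was 508.

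**Figure D4:**
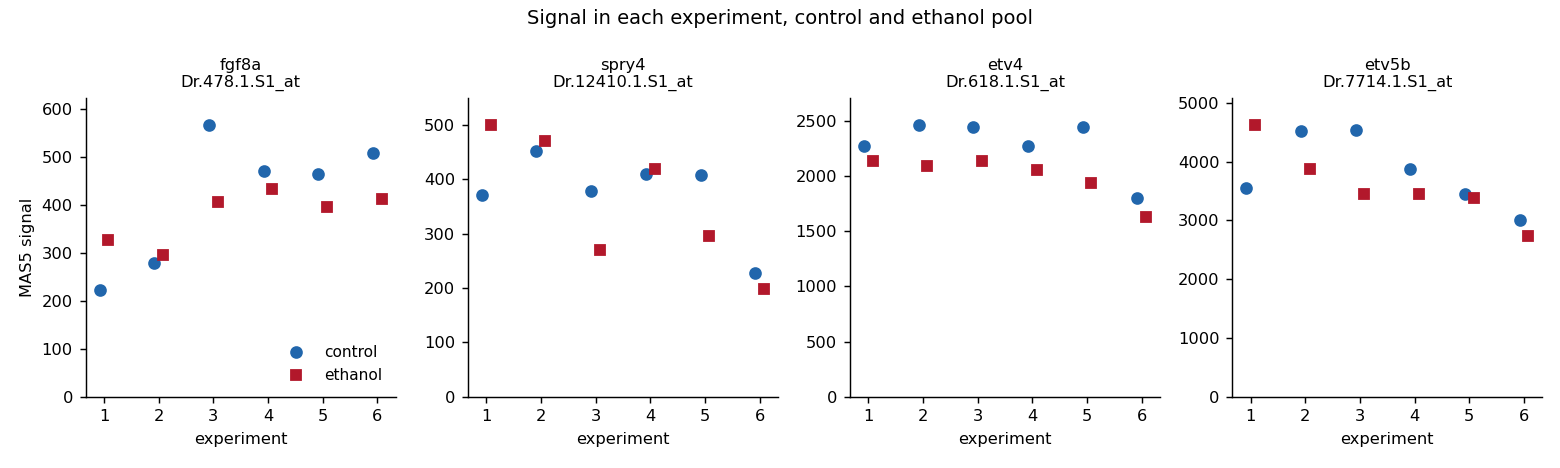
MAS5 signal (vertical axis, linear) in the control (circles) and ethanol pool (squares) of each experiment (horizontal axis) for *fgf8a*, *spry4*, *etv4* and *etv5b*. The pools of experiments 1 and 2 are the lowest for *fgf8a*, and those of experiment 6 for *spry4*, *etv4* and *etv5b*.

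Other genes of the pathway were taken by role from lists of 161 genes, of which 84 have a named probe set and 59 passed the signal minimum, each represented by its brightest tested probe set. In limma 1 of the 59 was called higher and 0 lower, against 3.78% and 1.62% of all probe sets tested. At an unadjusted p under 0.05 there were 8, against 18.2% of all. Among the 8 is *mespaa*, which passed the signal minimum through its control pools only, so that its place there carries no weight. The model without moderation also called 1. The median log2 fold change of the 59 was 0.091, against 0.053 over all probe sets tested. The gene called was *gab1*, which encodes a docking protein that links receptor tyrosine kinases to their signal cascades. Its signal was 333, 268, 209, 363, 376 and 268 in the control pools and 328, 477, 352, 466, 513 and 325 in the ethanol pools, higher in 5 of 6 experiments. The estimate for *gab1* was 0.44 on the log2 scale (SE 0.13, limma adjusted p = 0.148), and the call was lost without any 1 experiment (0.36 to 0.53), without the experiment term (limma adjusted p = 0.545), and after median centring or quantile normalization (0.34 each).

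At the level of ligands and receptors, few genes reached the signal minimum on these arrays. Of 10 further ligand and FGF-binding protein genes with a named probe set, only *fgfbp1a* did, with a control mean of 43.2 and an ethanol mean of 54.3. Of 5 receptor genes, *fgfr1a*, *fgfr2* and *fgfr4* did. The *fgfr4* signal was 2279 ± 334 in control and 2249 ± 321 in ethanol pools (SD, n = 6), with a log2 estimate of -0.020 (SE 0.088, limma adjusted p = 0.926). The signals of *fgfr1a* and *fgfr2* lay near the minimum, with control means of 52.5 and 65.3. In limma 0 of these ligand and receptor genes were called, against 5.4% of all probe sets tested. An unadjusted p under 0.05 was found for 0, against 18.2% of all, and the unmoderated model called 0. With so few genes these counts say little.

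Of 14 heparan sulfate genes limma and the unmoderated model called 0, against 5.4% of all probe sets tested in limma. Of these 14 genes 3 had an unadjusted p under 0.05 in limma, against 18.2% of all probe sets tested. Above 0 were 12 of them (median 0.12), as were most of all probe sets tested (40.3% below 0, median 0.053). The highest estimate was that of *ndst2a*, an N-deacetylase and sulfotransferase gene of heparan sulfate synthesis, at 0.47 (SE 0.14, limma adjusted p = 0.166). Its ethanol pool was the higher one in 6 of 6 experiments, as for 8.14% of all probe sets tested. Of 21 genes of RAS and MAP kinase transduction, *gab1* was the 1 called, against 3.78% of all probe sets tested called higher. An unadjusted p under 0.05 was found in limma for 2 of the 21, against 18.2% of all. Above 0 were 17 (median 0.10), as were most of all probe sets tested (40.3% below 0). The adaptor gene *frs2b*, which couples FGF receptors to RAS, had an estimate of 0.31 (SE 0.13, limma adjusted p = 0.256), and the ERK gene *mapk3* one of -0.014 (SE 0.087, limma adjusted p = 0.947).

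Of 6 further inhibitors and modulators limma and the unmoderated model called 0, against 5.4% of all probe sets tested in limma. In limma 0 had an unadjusted p under 0.05, against 18.2% of all. With so few genes these counts say little. Estimates lay above 0 for 3 of the 6 (list median 0.11, against 0.053 over all probe sets tested). These were *dusp4* (0.43, SE 0.25), *tob1a* (0.26, SE 0.12) and *tob1b* (0.23, SE 0.12). Among those below 0, *spred1*, a relative of the Sprouty genes, was lower in 6 of 6 experiments, as for 3.84% of all probe sets tested. Its estimate was -0.22 (SE 0.095, limma adjusted p = 0.279). Of 14 other ETS factors and early targets both models called 0, against 5.4% of all probe sets tested in limma. Above 0 were 5 of the 14 (median -0.15), whereas most of all probe sets tested were above 0 (40.3% below 0, median 0.053). In limma 3 had an unadjusted p under 0.05, against 18.2% of all. These 3 had estimates below 0, namely the immediate early gene *ier2a* at -0.26 (SE 0.10, limma adjusted p = 0.230), the mesoderm gene *tbxta* at -0.28 (SE 0.12, limma adjusted p = 0.270) and *mespaa* at -1.09 (SE 0.34, limma adjusted p = 0.173). At 34.7 the ethanol mean of *mespaa* was smaller than the signal minimum, which it passed through its control pools only. This leaves the size of its change uncertain, and its place in the counts of this list carries no weight. After median centring *ier2a* was called lower (-0.37, limma adjusted p = 0.145).

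**Figure D5:**
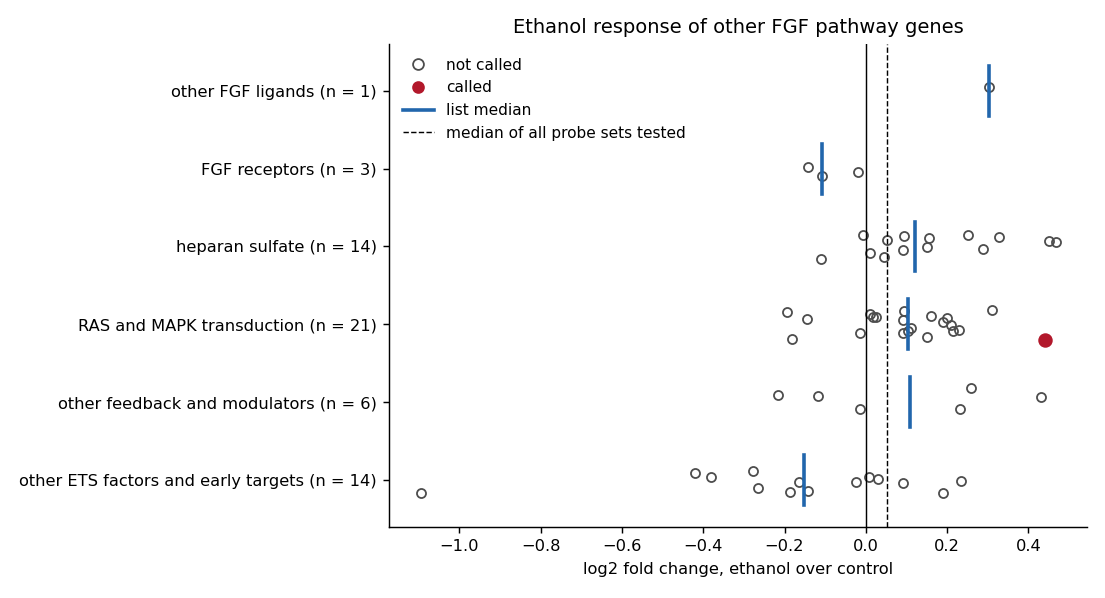
Log2 fold change of ethanol over control (horizontal axis) of the 59 other FGF pathway genes by role, 1 circle a gene on its brightest probe set, with the list median as a blue bar and the median of all tested probe sets as a dashed line. The filled circle is *gab1*, the 1 gene called.

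The transcripts whose signals followed those of the 4 brightest members most closely over the 12 arrays were sought among all named probe sets tested, by Pearson correlation of the log2 signal. Since each is the best of many, these values describe likeness on these arrays only, and they include differences between experiments and treatments. For *etv4* the closest were *rpsa*, a ribosomal protein gene (r = 0.940), *lnx1* (0.910) and *otop1* (0.908). Of these *otop1*, a proton channel gene, was called lower with ethanol, by -0.56 on the log2 scale (limma adjusted p = 0.0955). For *etv5b* they were *rnf20* (0.890), the chaperonin gene *cct4* (0.888) and *sinhcafl* (0.873). For *dusp6* they were the proteasome gene *psmd11b* (0.896), the periplakin gene *ppl* (0.796) and *perp* (0.782), and for *il17rd* they were *smarcad1a* (0.923), *zgc:152863* (0.841) and *rbbp5* (0.834). None of these was another FGF gene of the lists used here.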

How the data were processed

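The deposited values were MAS5 signals, an intensity per probe set on a linear scale that the authors made with Affymetrix Expression Console, scaling each array to a common target. No source used here gives the software version. Array medians were 91.6 to 102 in control and 98.6 to 106.6 in ethanol arrays. How precise a value is depends on the number of arrays. The limma p-values rest on the spread between independent experiments, with the variance of each probe set moderated, that is drawn toward a value shared by all tested.

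Names came from the platform annotation of 2016, brought up to date by gene identifier. Of 15617 probe sets, 10802 have 1 symbol, 135 several and 4680 none. Left out were 115 control probe sets and 5735 whose mean signal was below 50 in each treatment, and the other 9767 went into limma 3.58.1 (R 4.3.3) on the log2 scale with Benjamini-Hochberg adjustment. The study used a 2-factor model with Storey q and detection calls, and the calls were not used here. Pairs came from the replicate numbers in the labels, since the methods fit experiment as a factor. That arrays of the same number came from the same experiment is inferred, and the labels do not state it. Arrays of 1 number deviated together from their treatment means, with correlations of 0.373 to 0.669. These were not set against correlations between arrays of different numbers, so that they do not test the pairing. On simulated data for the ethanol comparison with 9767 probe sets, 64 of 100 changed 1.5-fold and 89 of 100 changed 2-fold were called, with 29 of 9567 unchanged ones. Only those few were changed there, with independent errors, whereas 18.2% of all had an unadjusted p under 0.05 in the real data. The Benjamini-Hochberg limit depends on how many change, so that these rates need not hold for the real data. Alternatives covered the experiment term, the signal minimum, the scaling, the pseudocount and leaving out each experiment.

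Named are all members, up to 4 called genes per pathway list and the closest 3 transcripts of the 4 brightest members. Other pathway genes were chosen to be named once their values were known. The list genes *braf*, *srf* and *tbx6l* were matched by an older symbol, and *fgf17* by that of *fgf8b*. The members and lists were chosen with earlier results of these data known. Exact tests used Python 3.11.15. Probe sequences were not used here.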

Additional observations from a re-analysis of the deposited data

Results flagged for a closer look

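In 28 groups of 6 arrays (14 probe sets in each treatment), 4 had an array far from the others. The gap to the nearest array, as a share of the group's range on the log2 scale, had to exceed the 95% critical value of Dixon for 6 values. That value flags about 1 in 20 groups of normal values. The share flagged among all probe sets was not computed, and the 28 groups share the same arrays, so that no excess is shown. The *etv4* pool of experiment 6 was the lowest in both treatments, with a share of 0.744 in control (1796 against 2269 to 2459.6) and of 0.632 in ethanol pools (1625 against 1932 to 2137). The *spry4* control pool of experiment 6 was also the lowest, with a share of 0.711 (227 against 371 to 452). The *etv5a* ethanol pool of experiment 1 was the highest on the brighter probe set, with a share of 0.678 (1004 against 628 to 730.5), and without experiment 1 the log2 estimate of that probe set was 0.24. The cause of these values was not tested.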

How the results depend on the processing

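Over the whole array 527 of 9767 tested probe sets were called. The count was 614 with a random replicate block, 726 on the log2(signal + 50) scale and 824 of 7954 with a minimum of 100. It was 548 with the unmoderated model and Storey q, 407 after median centring and 249 after quantile normalization. Only 1 was called without the replicate block (experiment term), 2 of 15502 with no signal minimum, and 21 to 143 without 1 experiment. The share of higher calls was 70.0%, against 41.4% after quantile normalization and 29.5% after median centring. Of the 13 member probe sets, 1 was called, against 2 with a random replicate block or a minimum of 100 and 0 without the block, with the unmoderated model and Storey q, with no minimum, after quantile normalization or median centring and without any 1 experiment. Of the 59 other pathway genes, 1 was called, against 2 with the random block or a minimum of 100, 3 on the log2(signal + 50) scale, 0 without the block, with no minimum or after quantile normalization, and 0 to 1 without 1 experiment. After median centring the 1 was *ier2a* in place of *gab1*, and without experiment 4 it was *mespaa*. The gene *mespaa* is also among those called with the random block and on the log2(signal + 50) scale. It passed the signal minimum through its control pools only, so that its calls carry no weight. Signs turned for *dusp6* on the dimmer probe set without experiment 5 (-0.052, up to 0.37 without experiment 6), for *il17rd* without experiment 3 (0.016) or 4 (0.0091, down to -0.079 without experiment 5) and for *spry2* minus *spry4* without experiment 2 (0.037, with -0.38 as the lowest without 1 experiment). The *etv5a* minus *etv5b* difference stayed above 0 under every alternative run. Signals near or under 50, as for *spry2*, limit what could be detected.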
